A study of Mus musculus with 18 samples.

Results

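The genes described here are the H19, Igf2 and Kcnq1 imprinted domain of distal mouse chromosome 7. They are the 9 genes, of 54532 in a deposited expression table, whose names are H19, Igf2, Cdkn1c, Kcnq1ot1, Kcnq1, Phlda2, Slc22a18, Ascl2 and Cd81. They were taken by name, with earlier results of these data known. RNA was sequenced from cells of ES-E14TG2a, an embryonic stem cell line derived from mouse blastocysts, in 18 libraries that fall into 6 groups of 3: Arf-B, Arf-C and Ctrlv2 cells, each sampled at day 8 and day 0 while differentiating towards posterior foregut endoderm. The series title names p19Arf, the genotype label reads wild type for every library, and the way in which the Arf lines differ from Ctrlv2 is not stated in the sources used here. All day 8 cells had received activin A (20 ng/mL) on Matrigel from day 0, followed by retinoic acid (its dose is labelled 5 μM/ml) with FGF10 (10 ng/mL) between day 4 and day 8. Polyadenylated RNA was taken from Trizol extracts. Cdkn2a, which encodes both p19Arf and p16Ink4a, was at 40.1 to 44.7 FPKM in Arf-B and 42.6 to 46.3 FPKM in Arf-C at day 8, against 32.0 to 34.3 FPKM in Ctrlv2, and at 1.67 to 2.14 and 2.18 to 2.37 FPKM at day 0, against 1.89 to 3.36 FPKM; values of a whole gene do not show how the lines differ at this locus. Replicates are numbered 1 to 3 with no statement that they are separate cultures, so p-values measure only the spread between these samples.

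An imprinted gene is transcribed mainly from the copy inherited from a single parent. In the mouse, H19 and Igf2 share enhancers: an imprinting control region upstream of H19 binds the insulator protein CTCF on the maternal copy, where H19 is transcribed, and is methylated on the paternal copy, where Igf2 is transcribed. In the neighbouring Kcnq1 domain the long antisense RNA Kcnq1ot1 is transcribed from the paternal copy out of an intron of Kcnq1 and represses Cdkn1c, Phlda2, Slc22a18 and other genes on that copy. The table holds 1 value per gene, so it tells neither the parental copies apart nor the alternative promoters of Igf2. In bulk RNA, fewer cells of a type and less RNA per cell cannot be told apart.

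H19 lies at chr7:142575529-142578143 on the minus strand (mm10), Igf2 at chr7:142650766-142666816 on the minus strand, with its start 88.7 kb from that of H19. Ascl2, Cd81, Kcnq1, Kcnq1ot1, Cdkn1c, Slc22a18 and Phlda2 follow in this order, with starts 391.1 to 925.0 kb from the H19 start. Both H19 and Igf2 also host microRNAs. The mature sequences are given here, as RefSeq lists them for GRCm38.p6, because they are part of what the H19 and Igf2 loci produce. Capitals mark the seed, bases 2 to 8.
mmu-miR-675-5p: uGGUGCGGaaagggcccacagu
mmu-miR-675-3p: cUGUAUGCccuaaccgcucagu
mmu-miR-483-5p: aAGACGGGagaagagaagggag
mmu-miR-483-3p: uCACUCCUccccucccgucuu
The 4 seeds differ from one another. Mir675 lies wholly within H19 exon bases and was listed with 0 reads in every library. How reads over these shared bases were assigned is not stated in the sources used here. Mir483 lies within an intron of Igf2 and held 5, 10 and 0 reads over the day 8 libraries of Arf-B, Arf-C and Ctrlv2. Mature microRNAs are not measured by polyadenylated RNA libraries.

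Promoter windows of 300 bases (250 before to 50 after a start) are in RefSeq's table for 6 of the 9 genes: Igf2, Kcnq1ot1, Phlda2, Slc22a18, Ascl2 and Cd81. Of these, 3 are shown. The Kcnq1ot1 window (chr7:143296498-143296797, minus strand) belongs to the transcript that silences the domain, and Phlda2 (chr7:143502475-143502774, minus strand) and Slc22a18 (chr7:143473539-143473838, plus strand) are neighbours that both fell with differentiation. Capitals mark the motifs CCAAT and GGGCGG, searched on both strands with no overlap between them.
Kcnq1ot1: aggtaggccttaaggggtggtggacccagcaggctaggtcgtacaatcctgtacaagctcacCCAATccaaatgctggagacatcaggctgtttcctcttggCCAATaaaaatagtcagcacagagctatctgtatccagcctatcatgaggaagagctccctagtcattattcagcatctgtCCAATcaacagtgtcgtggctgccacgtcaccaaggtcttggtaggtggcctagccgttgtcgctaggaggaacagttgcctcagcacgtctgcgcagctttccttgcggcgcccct
Phlda2: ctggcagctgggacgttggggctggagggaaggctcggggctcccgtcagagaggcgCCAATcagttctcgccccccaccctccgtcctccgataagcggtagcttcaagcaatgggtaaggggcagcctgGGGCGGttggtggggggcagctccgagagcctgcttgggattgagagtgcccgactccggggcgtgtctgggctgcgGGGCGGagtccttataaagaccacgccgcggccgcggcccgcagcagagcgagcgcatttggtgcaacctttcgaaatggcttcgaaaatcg
Slc22a18: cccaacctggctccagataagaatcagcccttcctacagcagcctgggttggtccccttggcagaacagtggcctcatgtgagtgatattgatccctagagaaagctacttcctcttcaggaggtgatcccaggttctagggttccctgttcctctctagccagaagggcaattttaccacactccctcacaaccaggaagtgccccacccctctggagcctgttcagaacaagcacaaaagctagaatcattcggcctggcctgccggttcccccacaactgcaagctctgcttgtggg
The Kcnq1ot1 window holds 3 CCAAT matches, no GGGCGG match and 9 CpG dinucleotides. The Phlda2 window holds 1 CCAAT match, 2 GGGCGG matches and 26 CpG. Slc22a18 has neither motif and 2 CpG. CCAAT occurs in 37.4% and GGGCGG in 35.7% of all 32841 promoter windows, whose median number of CpG is 7 with quartiles of 3 and 20. Igf2 has 4 annotated windows, with 2 to 24 CpG. A match is a description of the letters and not a bound site.

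**Figure D1:**
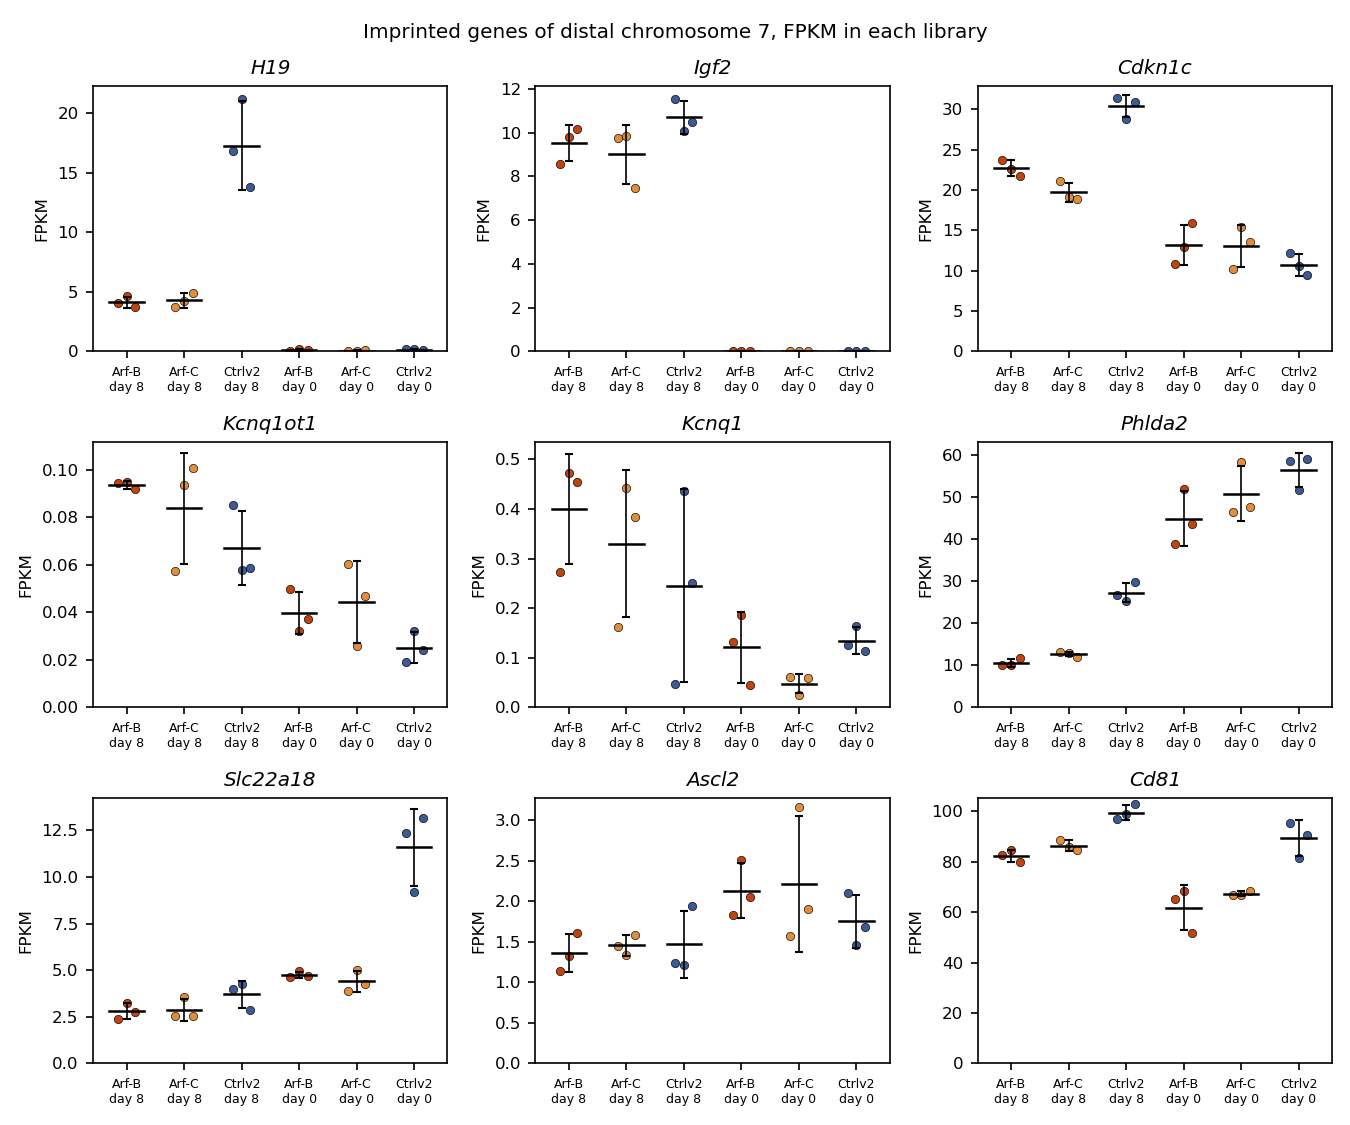
FPKM of the 9 genes in each of the 18 libraries, 1 panel per gene; points are libraries, horizontal lines group means and bars 1 SD (n = 3). At day 8 H19 lies at 3.70 to 4.91 FPKM in the Arf libraries and at 13.8 to 21.2 FPKM in Ctrlv2, while Igf2 reaches 7.46 to 10.2 FPKM in the Arf libraries and 10.1 to 11.6 FPKM in Ctrlv2.

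Values are FPKM, fragments per kilobase of counted gene length and scaled to library size. Tests were run with limma on log2(FPKM + 1) over the 17200 genes that reached 0.5 FPKM in 3 or more libraries, and a gene was called at a Benjamini-Hochberg adjusted p below 0.05 over all genes tested. Of the 9 genes, 7 passed this filter; H19 and Igf2 did so through their day 8 libraries. Kcnq1ot1 and Kcnq1 lay below it and are described from reads. Because 1 FPKM is added before the logarithm, fold changes of genes with low values are understated.

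H19, a long noncoding RNA, was nearly silent in the undifferentiated cells and rose in all 3 lines. It stood at 4.07, 4.64 and 3.70 FPKM in the Arf-B libraries of day 8, against 0.0386, 0.212 and 0.0929 FPKM at day 0. In Arf-C it stood at 3.71, 4.23 and 4.91 FPKM at day 8, against 0.0502, 0.0279 and 0.0807 FPKM at day 0. In Ctrlv2 it reached 16.8, 21.2 and 13.8 FPKM at day 8, against 0.181, 0.177 and 0.0882 FPKM at day 0. Every day 8 library lay far above every day 0 library, and every Ctrlv2 library of day 8 lay far above the Arf libraries of that day. The rise with day was called in Arf-B (log2 fold change 2.20, SE 0.12, limma adjusted p = 2.5e-10), in Arf-C (2.32, SE 0.12, adjusted p = 1.41e-10) and in Ctrlv2 (3.97, SE 0.12, adjusted p = 1.78e-13). H19 passed the filter through its day 8 libraries alone, so the values of each library, and not these p-values, carry the rise. As ratios of mean FPKM the rises were 36.1-fold, 80.9-fold and 116-fold in Arf-B, Arf-C and Ctrlv2. These ratios rest on few day 0 reads: 23 in Arf-B, 10 in Arf-C and 31 in Ctrlv2, summed over 3 libraries, against 661, 521 and 1622 at day 8.

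At day 8 H19 was lower in both Arf lines. The means were 4.14 ± 0.469 FPKM in Arf-B and 4.28 ± 0.601 FPKM in Arf-C, against 17.3 ± 3.75 in Ctrlv2 (SD, n = 3 each), which makes the mean in Ctrlv2 4.18 and 4.03 times those in Arf-B and Arf-C. The log2 fold changes were -1.81 (SE 0.12, limma adjusted p = 3.17e-08) and -1.78 (SE 0.12, adjusted p = 3.9e-08); the 2 comparisons share their 3 Ctrlv2 libraries. At day 0 neither line was called for H19 (log2 -0.05, adjusted p = 0.827, and -0.12, adjusted p = 0.463), although all 3 Arf-C libraries lay below all 3 of Ctrlv2. With a pseudocount of 0.1 the Arf-C difference at day 0 was called (log2 -0.69, adjusted p = 0.0444).

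The day response of H19 on the log2(FPKM + 1) scale was smaller in both Arf lines than in Ctrlv2, by 1.77 in Arf-B (interaction -1.77, SE 0.18, limma adjusted p = 2.66e-06) and by 1.65 in Arf-C (interaction -1.65, SE 0.18, adjusted p = 4.32e-06). With limma's voom on the recovered reads, where no FPKM is added, these differences were -1.47 (adjusted p = 0.117) and -0.60 (adjusted p = 0.603) and neither was called. The difference between the lines at day 8 was called with voom as well, at log2 -2.04 and -1.99 (adjusted p = 1.79e-10 and 1.32e-09).

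Igf2, a growth factor of the insulin family, was switched on in all 3 lines to nearly the same level. It stood at 8.58, 9.81 and 10.2 FPKM in Arf-B at day 8, at 9.74, 9.83 and 7.46 FPKM in Arf-C and at 11.6, 10.1 and 10.5 FPKM in Ctrlv2. The Arf-B and Ctrlv2 ranges overlap, and the Arf-C libraries lie just below those of Ctrlv2. At day 0 the libraries held 0 to 4 reads each, with sums of 4 in Arf-B, 1 in Arf-C and 6 in Ctrlv2, and 4 of the 9 libraries held none. At these depths 3 reads on Igf2 equal 0.0162 to 0.0240 FPKM. Against day 0, pooled reads, scaled to library size, were 1115 times as high at day 8 in Arf-B (exact 95% interval 435 to 4093), 4069 times in Arf-C (730 to 160771) and 893 times in Ctrlv2 (410 to 2437), intervals that cover counting error only. The log2 fold changes with day were 3.38, 3.31 and 3.53 (SE 0.09 each, limma adjusted p = 4.3e-14, 5.34e-14 and 1.48e-14). Igf2 passed the filter through its day 8 libraries alone, so the reads of each library, and not these p-values, carry the rise.

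Between lines at day 8, Igf2 was not called. The difference was -0.16 in Arf-B (SE 0.09, limma adjusted p = 0.202) and -0.23 in Arf-C (SE 0.09, adjusted p = 0.0556). The Arf-C difference passed the threshold without Arf-C replicate 1 (adjusted p = 0.0384) or replicate 2 (adjusted p = 0.0355). At day 0 neither line was called for Igf2 (adjusted p = 0.985 and 0.925), and neither was the difference in day response (interactions -0.15, adjusted p = 0.389 and -0.22, adjusted p = 0.191). Most Igf2 exon bases (62.8%) are shared with Gm49394, an annotated gene on the same strand that was listed at 0 reads in all 18 libraries. How reads over the shared bases were assigned is not stated in the sources used here, so the level of Igf2 per length is uncertain.

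The ratio of H19 to Igf2 FPKM separated the lines at day 8. It was 0.475, 0.472 and 0.365 in the Arf-B libraries and 0.381, 0.430 and 0.658 in those of Arf-C, against 1.46, 2.11 and 1.32 in Ctrlv2. No Arf library reached a ratio of 1 and no Ctrlv2 library fell below it. On the log2 scale the difference was -1.87 (SE 0.24) for Arf-B and -1.74 (SE 0.32) for Arf-C. A two-sided exact permutation test gave p = 0.1 for each, the smallest value that 3 libraries against 3 allow. The size of the ratio itself carries the uncertainty of the Igf2 level; its denominator holds no day 0 value, since Igf2 was near 0 there.

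Igf2os, a transcript antisense to Igf2 that overlaps 1.71% of its exon bases, was switched on as well. It averaged 1.202 ± 0.194 FPKM in Arf-B, 0.901 ± 0.137 in Arf-C and 1.09 ± 0.0473 in Ctrlv2 at day 8, against 0.0204, 0.00686 and 0.0171 FPKM at day 0. Ins2, an insulin gene whose start lies 165.2 kb from that of H19, held 18, 8 and 17 reads in the Arf-B libraries of day 8 and 7, 12 and 12 in those of Arf-C, against 0 in each Ctrlv2 library of day 8. No day 0 library held an Ins2 read. The 6 Arf libraries of day 8 were thus the only ones of the 18 with Ins2 reads. Ins2 passed the 0.5 FPKM filter through 4 of those 6 libraries alone, so no test or fold against the Ctrlv2 libraries at 0 is given.

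**Figure D2:**
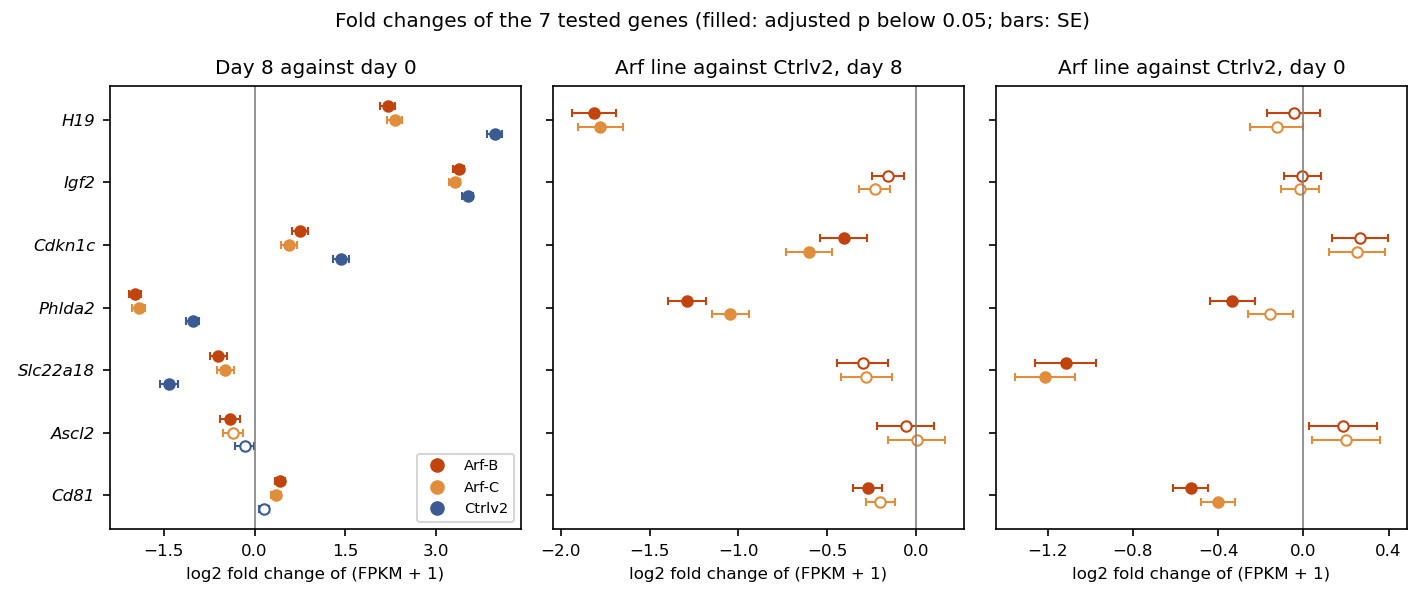
Log2 fold changes of (FPKM + 1) for the 7 tested genes in the day comparisons (left), the Arf lines against Ctrlv2 at day 8 (middle) and at day 0 (right); filled points have an adjusted p below 0.05 and bars are standard errors. H19 and Phlda2 lie farthest below 0 at day 8, and Slc22a18 at day 0 (-1.12 and -1.21).

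In the Kcnq1 domain, Kcnq1ot1 was low per base but detected in every library. It is counted as 1 exon of 93092 bases, so that 52 to 213 reads per library make only 0.0191 to 0.101 FPKM. At day 8 it had 213, 164 and 193 reads in Arf-B, 88, 149 and 149 in Arf-C and 122, 57 and 69 in Ctrlv2. At day 0 it had 146, 86 and 76 reads in Arf-B, 136, 70 and 110 in Arf-C and 52, 75 and 72 in Ctrlv2. Per library size, the day 8 libraries lay above the day 0 libraries in Arf-B and Ctrlv2, and the ranges overlapped in Arf-C. With voom over the 18615 genes with at least 10 reads in at least 3 libraries, Kcnq1ot1 rose with day in Arf-B (log2 1.24, SE 0.24, adjusted p = 7.02e-05), Arf-C (1.00, SE 0.26, adjusted p = 0.00158) and Ctrlv2 (1.48, SE 0.32, adjusted p = 0.000207). Each of these 3 rises was called without any 1 library of its 2 groups. This fit called 69.0%, 67.0% and 67.5% of all genes tested in the 3 day comparisons.

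Between lines, 1 difference in Kcnq1ot1 passed the threshold. At day 0 it was higher in Arf-C than in Ctrlv2 (voom log2 0.75, SE 0.30, adjusted p = 0.0441), in a comparison where 46.6% of all genes were called. That call was lost without replicate 1 (adjusted p = 0.163) or 3 (0.104) of Ctrlv2 or replicate 1 (0.212) or 3 (0.127) of Arf-C. In Arf-B, where 43.5% of all genes were called, the day 0 difference was 0.70 (SE 0.30, adjusted p = 0.0629), called without Ctrlv2 replicate 2 (0.0432) or Arf-B replicate 2 (0.0406). At day 8, where voom called 28.4% and 26.7% of all genes, it was 0.47 in Arf-B (adjusted p = 0.192) and 0.27 in Arf-C (adjusted p = 0.528), neither called. The day responses were not called different from that of Ctrlv2, where 30.8% and 33.9% of all genes were (voom -0.24, adjusted p = 0.701 and -0.48, adjusted p = 0.396). The start of Kcnq1ot1 lies in intron 11 of a 16-exon Kcnq1 transcript, and 1 Kcnq1 exon of 121 bases lies inside Kcnq1ot1 on the opposite strand. Whether counting used strand is not stated in the sources used here, and without it reads from Kcnq1 introns and from Kcnq1ot1 cannot be told apart.

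Kcnq1, a voltage-gated potassium channel subunit, was close to the limit of detection. It held 27, 36 and 42 reads in Arf-B at day 8, 11, 31 and 25 in Arf-C and 3, 19 and 13 in Ctrlv2. Day 0 libraries held 17, 22 and 4 reads in Arf-B, 6, 3 and 6 in Arf-C and 15, 17 and 15 in Ctrlv2. The Ctrlv2 libraries of day 8 spread widely, at 0.0475, 0.437 and 0.251 FPKM. With voom, Kcnq1 rose with day in Arf-B (log2 1.75, SE 0.53, adjusted p = 0.00505) and Arf-C (2.68, SE 0.70, adjusted p = 0.00141), and its change in Ctrlv2 was 0.32 (SE 0.63, adjusted p = 0.662). Without replicate 1 of day 8, which held 3 reads, the Ctrlv2 change was 1.31 and was called (adjusted p = 0.0432). The difference between these day responses was not called (voom 1.42, adjusted p = 0.202 for Arf-B and 2.36, adjusted p = 0.0537 for Arf-C), although without 3 single day 8 libraries, replicates 2 and 3 of Ctrlv2 and replicate 1 of Arf-C, the Arf-C one was (adjusted p = 0.0237, 0.0484 and 0.0212). Without Ctrlv2 replicate 1 of day 8 it was 1.37 (adjusted p = 0.224). Against Ctrlv2, Kcnq1 was not called at day 8 (1.19, adjusted p = 0.120 in Arf-B and 0.87, adjusted p = 0.311 in Arf-C) or at day 0 (-0.23, adjusted p = 0.789 and -1.48, adjusted p = 0.0935).

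**Figure D3:**
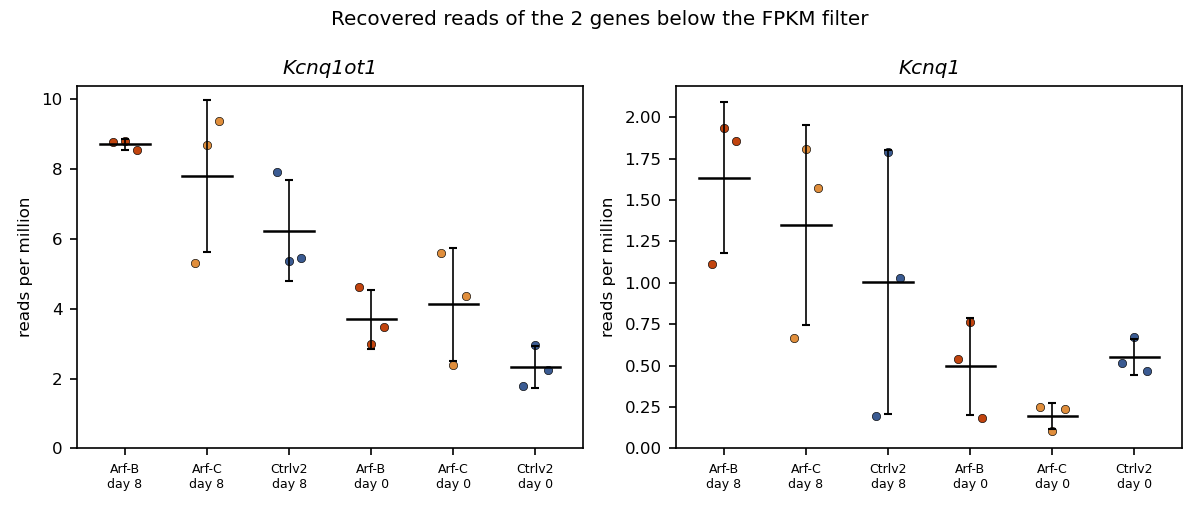
RPM (reads scaled to library size) of Kcnq1ot1 and Kcnq1, the 2 genes below the FPKM filter, in each library; horizontal lines are group means and bars 1 SD (n = 3). Kcnq1ot1 is higher at day 8 than at day 0 in Arf-B and Ctrlv2 without overlap, and Kcnq1 spreads widely in the day 8 libraries of Ctrlv2.

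Cdkn1c, the cyclin-dependent kinase inhibitor p57Kip2 and a gene transcribed from the maternal copy, rose with day in all 3 lines, and it ended lower in the Arf lines. In Arf-B it was at 23.8, 22.6 and 21.7 FPKM at day 8, against 10.9, 12.9 and 15.9 FPKM at day 0. In Arf-C it was at 21.1, 19.1 and 18.9 FPKM at day 8, against 10.3, 15.4 and 13.6 FPKM at day 0. In Ctrlv2 it was at 31.5, 28.9 and 30.9 FPKM at day 8, against 12.2, 10.6 and 9.47 FPKM at day 0. At day 8 all 3 Ctrlv2 libraries lay above all 6 Arf libraries, while at day 0 the 3 lines overlapped. The rise was 0.75 in Arf-B (SE 0.13, limma adjusted p = 9.71e-05), 0.57 in Arf-C (SE 0.13, adjusted p = 0.00113) and 1.43 in Ctrlv2 (SE 0.13, adjusted p = 7.47e-08). The response was smaller than in Ctrlv2 in Arf-B (interaction -0.67, SE 0.19, adjusted p = 0.0111) and in Arf-C (-0.85, SE 0.19, adjusted p = 0.00206).

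At day 8 Cdkn1c was lower in Arf-B than in Ctrlv2 by limma (log2 -0.41, SE 0.13, adjusted p = 0.0264) and lower in Arf-C (-0.60, SE 0.13, adjusted p = 0.00223). The Arf-B call was lost with no filter on low values (adjusted p = 0.0577) and with libraries scaled to the same sum (0.0626). It was also lost without Ctrlv2 replicate 1 (0.0705) or 3 (0.0671) or Arf-B replicate 2 (0.0637) or 3 (0.0802) of day 8. At day 0 Cdkn1c was not called in Arf-B (log2 0.27, adjusted p = 0.124) or Arf-C (0.25, adjusted p = 0.143), except without Arf-B replicate 1 (adjusted p = 0.0360) or Arf-C replicate 1 (0.0175). An annotated antisense gene, Gm44732, overlaps 30.7% of the Cdkn1c exon bases and was listed at 0 reads in every group. Of the Gm44732 exon bases, 98.4% lie in Cdkn1c exons, and how reads over shared bases were assigned is not stated in the sources used here. The 0 reads therefore do not show that antisense RNA was absent, and the level of Cdkn1c per length is uncertain.

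Phlda2, a pleckstrin homology domain protein known in mice for restraining growth of the placenta, was abundant at day 0 and fell with differentiation. It was at 10.0, 9.98 and 11.7 FPKM in Arf-B at day 8, against 38.9, 51.8 and 43.6 FPKM at day 0. In Arf-C it was at 13.1, 12.9 and 12.0 FPKM at day 8, against 46.3, 58.2 and 47.7 FPKM at day 0. In Ctrlv2 it was at 26.6, 25.4 and 29.7 FPKM at day 8, against 58.6, 51.6 and 58.9 FPKM at day 0. Day 8 and day 0 did not overlap in any line, and the Ctrlv2 libraries of day 8 lay above all Arf libraries of that day. Phlda2 fell by 1.98 in Arf-B (SE 0.11, limma adjusted p = 1.27e-10), by 1.91 in Arf-C (SE 0.11, adjusted p = 1.99e-10) and by 1.02 in Ctrlv2 (SE 0.11, adjusted p = 2.87e-07) on the log2 scale. The fall was deeper than in Ctrlv2 in Arf-B (interaction -0.96, SE 0.15, adjusted p = 0.000166) and in Arf-C (-0.89, SE 0.15, adjusted p = 0.000263).

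At day 8 Phlda2 averaged 10.6 ± 0.974 FPKM in Arf-B and 12.7 ± 0.579 FPKM in Arf-C, against 27.2 ± 2.25 in Ctrlv2 (SD, n = 3 each). It was lower in both lines (log2 -1.29, SE 0.11, limma adjusted p = 2.12e-07, and -1.05, SE 0.11, adjusted p = 2.01e-06). At day 0 it was lower in Arf-B (log2 -0.33, SE 0.11, adjusted p = 0.0198), and the Arf-C difference was -0.15 (SE 0.11, adjusted p = 0.267). For Arf-B the day 0 call was lost when only its 2 groups were fitted (adjusted p = 0.0640) and without replicate 1 (0.0661) or 3 (0.0699) of Ctrlv2 or replicate 1 (0.108) or 3 (0.0536) of Arf-B.

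Slc22a18, an organic cation transporter, was lower in both Arf lines in the undifferentiated cells and was called in neither at day 8. At day 8 it was at 2.40, 3.26 and 2.76 FPKM in Arf-B and 2.56, 3.54 and 2.52 FPKM in Arf-C, against 3.97, 4.27 and 2.88 FPKM in Ctrlv2, and the ranges overlapped. The day 8 differences of -0.30 (adjusted p = 0.123) and -0.28 (adjusted p = 0.150) were not called, except without Ctrlv2 replicate 3 of day 8 (adjusted p = 0.0371 and 0.0455). The day 0 values were 4.64, 4.93 and 4.68 FPKM in Arf-B and 3.90, 5.03 and 4.25 FPKM in Arf-C, against 12.3, 9.22 and 13.2 FPKM in Ctrlv2. There all 6 Arf libraries lay below all Ctrlv2 libraries. At day 0 Slc22a18 was lower in Arf-B (log2 -1.12, SE 0.14, limma adjusted p = 1.59e-05) and in Arf-C (-1.21, SE 0.14, adjusted p = 6.06e-06).

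Slc22a18 fell with day in all 3 lines, by 0.60 in Arf-B (SE 0.14, limma adjusted p = 0.00147), by 0.48 in Arf-C (SE 0.14, adjusted p = 0.00719) and by 1.42 in Ctrlv2 (SE 0.14, adjusted p = 2.13e-07). The fall was shallower than in Ctrlv2 in Arf-B (interaction 0.82, SE 0.20, adjusted p = 0.00568) and in Arf-C (0.93, SE 0.20, adjusted p = 0.00191).

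Ascl2, a basic helix-loop-helix transcription factor known for trophoblast and intestinal stem cells, varied little. It averaged 1.36 ± 0.234 FPKM in Arf-B, 1.46 ± 0.129 in Arf-C and 1.47 ± 0.415 in Ctrlv2 at day 8, and 2.13 ± 0.343, 2.22 ± 0.843 and 1.75 ± 0.327 FPKM at day 0 (SD, n = 3 each). It fell with day in Arf-B (log2 -0.41, SE 0.16, limma adjusted p = 0.0342), a call lost with no filter (0.0681), with libraries scaled to the same sum (0.127) and without any 1 of 4 Arf-B libraries (replicates 2 and 3 of day 0, 1 and 2 of day 8; adjusted p = 0.0593 to 0.130). The changes in Arf-C (-0.36, adjusted p = 0.0597) and Ctrlv2 (-0.16, adjusted p = 0.381) were not called. The Arf-C change was called without Arf-C replicate 1 of day 0 (adjusted p = 0.0143). Against Ctrlv2, Ascl2 was not called at day 8 (log2 -0.06, adjusted p = 0.829 in Arf-B and 0.01, adjusted p = 0.991 in Arf-C) or at day 0 (0.19, adjusted p = 0.397 and 0.20, adjusted p = 0.346). Its day responses did not pass the test of a difference from Ctrlv2 either (interactions -0.24, adjusted p = 0.445 and -0.20, adjusted p = 0.539).

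Cd81, a tetraspanin membrane protein at the edge of the domain, was the most abundant of the 9 genes at both days. At day 8 it was at 82.6, 84.6 and 79.8 FPKM in Arf-B and 88.8, 85.9 and 84.7 FPKM in Arf-C, against 96.8, 99.1 and 103 FPKM in Ctrlv2. Its day 0 values were 65.2, 68.5 and 51.9 FPKM in Arf-B and 66.7, 66.6 and 68.4 FPKM in Arf-C, against 95.6, 81.5 and 90.8 FPKM in Ctrlv2. All Arf libraries lay below all Ctrlv2 libraries at each day. At day 0 it was lower in Arf-B (log2 -0.53, SE 0.08, limma adjusted p = 9.96e-05) and in Arf-C (-0.40, SE 0.08, adjusted p = 0.000958). At day 8 it was lower in Arf-B (-0.27, SE 0.08, adjusted p = 0.0183), and the Arf-C difference was -0.20 (SE 0.08, adjusted p = 0.0711). For Arf-B the day 8 call was lost with libraries scaled to the same sum (adjusted p = 0.180), without Ctrlv2 replicate 3 (0.0615) and without Arf-B replicate 3 (0.0638), and the Arf-C difference was called when only its 2 groups were fitted (0.0214). With day, Cd81 rose in Arf-B (0.42, adjusted p = 0.000295) and Arf-C (0.36, adjusted p = 0.00112), and its change in Ctrlv2 was 0.16 (adjusted p = 0.0995), called with libraries scaled to the same sum (0.29, adjusted p = 0.00567). The day responses of the Arf lines were not called different from that of Ctrlv2 (interactions 0.26, adjusted p = 0.0997 and 0.20, adjusted p = 0.193). The Arf-B one was called with libraries scaled to the same sum (0.35, adjusted p = 0.0346) and without Ctrlv2 replicate 2 (adjusted p = 0.0432) or Arf-B replicate 2 of day 0 (0.0345).

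The limma fit tested 7 of the 9 genes, H19 and Igf2 through their day 8 libraries alone. With day it called 7 of these 7 in Arf-B, where it called 66.7% of all genes tested. In Arf-C it called 6, against 66.6% of all genes, and in Ctrlv2 it called 5, against 68.3%. Against Ctrlv2 at day 8 it called 4 in Arf-B, where 33.2% of all genes were called, and 3 in Arf-C, where 33.6% were. At day 0 it called 3 in Arf-B (39.0% of all genes) and 2 in Arf-C (42.8%). All of these 12 calls against Ctrlv2 were lower. They are repeated calls of H19, Cdkn1c, Phlda2, Slc22a18 and Cd81 over lines and days, and not 12 separate results. Over all genes the calls were split evenly. At day 8, 16.9% of genes were lower and 16.3% higher in Arf-B, and 16.8% each way in Arf-C. At day 0, 20.0% (Arf-B) and 21.5% (Arf-C) of all genes were lower. Comparisons with Ctrlv2 on the same day share their 3 Ctrlv2 libraries, and scaling moves the split over all genes at day 8: of the genes called, 49% (Arf-B) and 50% (Arf-C) were higher, against 68.9% and 63.5% with libraries scaled to the same sum. The count for Arf-B at day 8 was 2 with libraries scaled to the same sum and 2 without Arf-B replicate 3 of day 8. The day responses differed from that of Ctrlv2 for 4 genes in each Arf line, where 33.5% (Arf-B) and 38.3% (Arf-C) of all genes differed. H19, Cdkn1c, Phlda2 and Slc22a18 were the 4 in both lines; the difference was positive for Slc22a18 and negative for the other 3.

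No difference between Arf-B and Arf-C was called for any of the 9 genes. The limma fit called 0 of the 7 genes it tested at day 8, where it called 0.0581% of all genes, and 0 at day 0 (0.343%). With the read filter, voom tested all 9 and called 0 at each day, against 0.0376% (day 8) and 0.967% (day 0) of all genes. At an unadjusted p below 0.05 there was 1, Phlda2 at day 8 (log2 -0.24 in Arf-B against Arf-C, limma adjusted p = 0.866). At day 8 the libraries of the Arf lines did not overlap for Cdkn1c, higher in Arf-B, or for Phlda2 and Cd81, lower in Arf-B. The mean ratios of Arf-B to Arf-C were 1.15, 0.834 and 0.952. How many of all genes separate in this way was not computed.

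**Figure D4:**
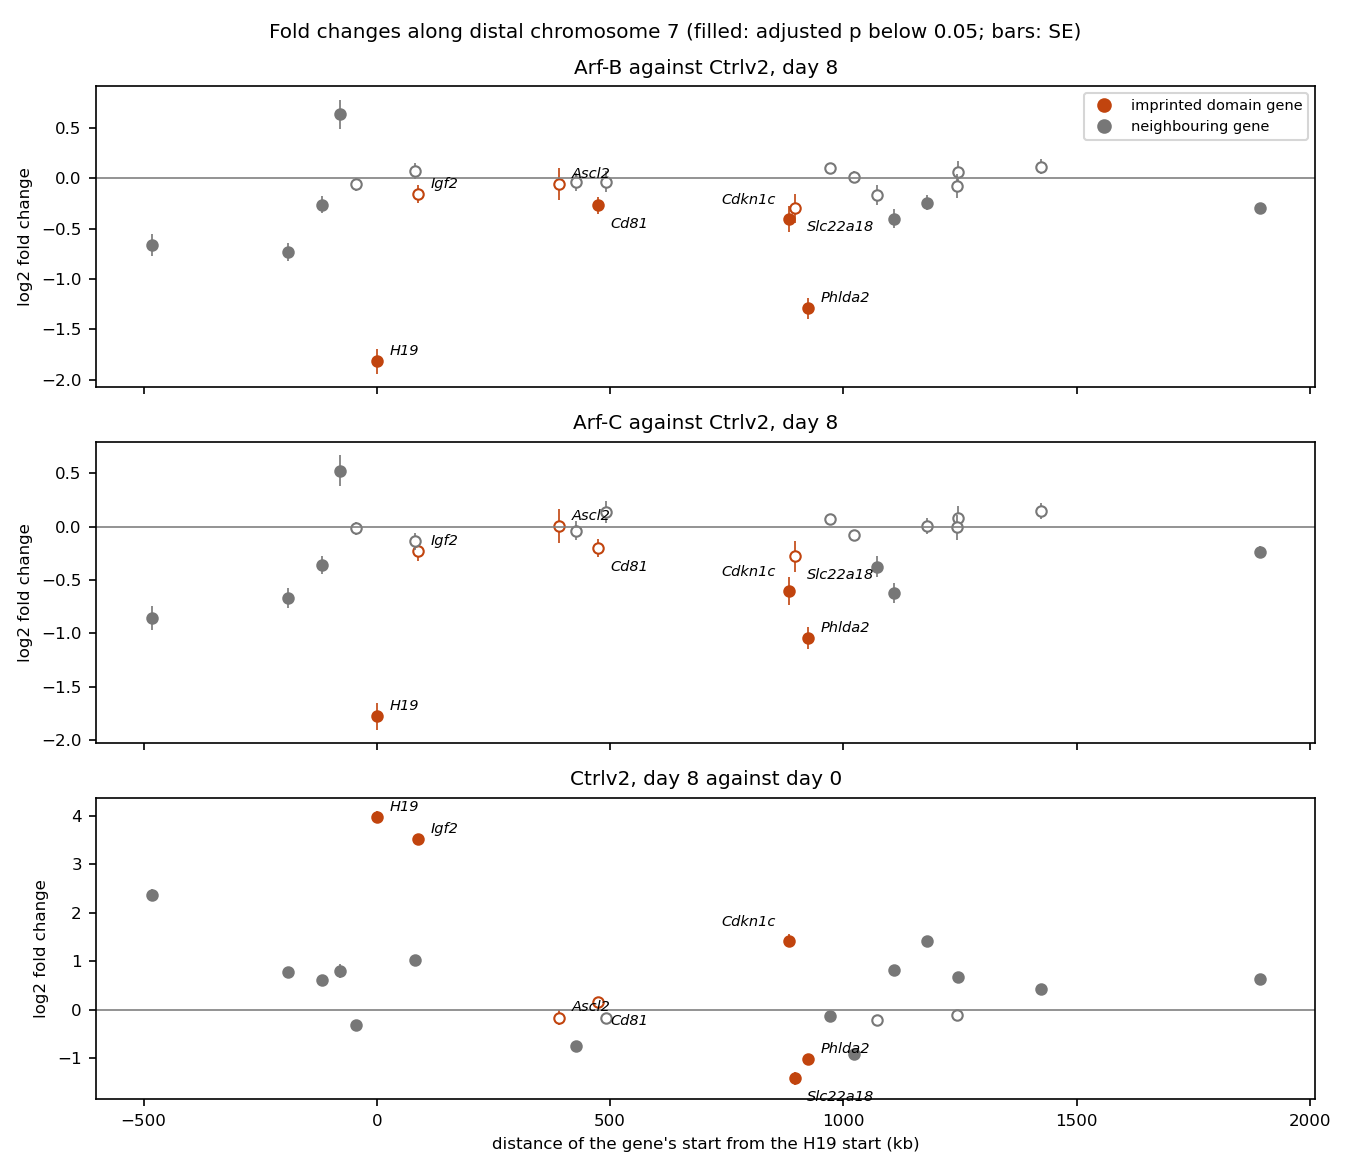
Log2 fold changes of (FPKM + 1) of the tested genes by distance of their start from the H19 start in kb, for Arf-B and Arf-C against Ctrlv2 at day 8 and for Ctrlv2 at day 8 against day 0; red points are genes of the imprinted domain, grey points neighbouring genes (without Ins2, which had no reads in Ctrlv2), filled points have an adjusted p below 0.05 and bars are standard errors. At day 8 H19 (-1.81 and -1.78) and Phlda2 (-1.29 and -1.05) lie below all neighbours, and Igf2, 88.7 kb from H19, lies close to 0 (-0.16 and -0.23).

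Genes around the domain differed in both directions. Of 24 neighbouring genes of distal chromosome 7, 18 were tested; at day 8, 2 were higher and 6 lower in each Arf line than in Ctrlv2, with medians of -0.05 (Arf-B) and -0.03 (Arf-C) against 0.01 over all genes tested. Ins2 is 1 of the 2 higher ones, with the limit given above. Over all genes, 16.3% were higher and 16.9% lower in Arf-B at day 8, and 16.8% each way in Arf-C, the shares beside which the counts of each list at day 8 stand. Ctsd, a lysosomal protease, averaged 101.9 ± 1.502 FPKM in Arf-B and 106.6 ± 3.44 FPKM in Arf-C, against 170.4 ± 16.1 in Ctrlv2 (log2 -0.73 and -0.67, limma adjusted p = 1.87e-05 and 4.44e-05). Dusp8, a dual-specificity phosphatase, averaged 2.69 ± 0.168 and 2.24 ± 0.362 FPKM, against 4.89 ± 0.969 in Ctrlv2 (log2 -0.66 and -0.86). Tnnt3, a skeletal muscle troponin between Ctsd and H19, was higher in the Arf lines, at 1.71 ± 0.192 and 1.51 ± 0.124 FPKM, against 0.798 ± 0.557 in Ctrlv2 (log2 0.63 and 0.52). With day in Ctrlv2, 10 neighbours rose and 4 fell (median 0.52, against -0.01 over all genes tested). In that comparison 33.9% of all genes rose and 34.4% fell. Among the neighbours that rose, Tnnt3, Igf2os and Dusp8 passed the 0.5 FPKM filter through day 8 libraries alone. Their day 0 group means were 0, 0.00686 to 0.0204 and 0.0931 to 0.126 FPKM. The filter favoured a rise for such genes, so the count and the median with day carry that limit.

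Receptors, binding proteins and adaptors of Igf2 signalling rose with day: 12 of 13 tested in Arf-B, 11 in Arf-C and 11 in Ctrlv2, where 2 fell, with medians of 1.19, 1.11 and 1.17, against -0.02, -0.02 and -0.01 over all genes tested. In these day comparisons 32.9%, 32.8% and 33.9% of all genes rose. Some of the 13 passed the 0.5 FPKM filter through day 8 libraries alone. At day 0 in Arf-B, Arf-C and Ctrlv2, Igfbp5 averaged 0.00605, 0.00229 and 0.0278 FPKM and Irs1 0.135, 0.0956 and 0.0225. For such genes the filter favoured a rise, so the counts and medians with day carry that limit. Igf1r, the signalling receptor, rose in Ctrlv2 by log2 1.24, and Igf2r, the receptor that clears Igf2, rose by 0.61. Against Ctrlv2 at day 8, 3 were higher and 4 lower in each Arf line, while the median over all genes tested was 0.01 for both. Igfbp5, an Igf-binding protein, averaged 12.8 ± 2.09 FPKM in Arf-B and 13.1 ± 5.53 FPKM in Arf-C, against 4.61 ± 0.667 in Ctrlv2 (log2 1.29 and 1.26, limma adjusted p = 0.000103 and 0.000127). Igfbp3, another binding protein, was at 8.26 ± 0.279 and 8.12 ± 0.504 FPKM, against 12.8 ± 1.37 in Ctrlv2 (log2 -0.57 and -0.59).

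Among 10 genes for proteins that bind or process Igf2 and H19 RNA, all tested, 5 were higher and 1 lower in Arf-B at day 8 and 4 were higher and 1 lower in Arf-C (medians 0.12 and 0.14). Igf2bp3, which binds Igf2 mRNA, had the largest difference of the 10. It averaged 18.3 ± 0.309 FPKM in Arf-B and 19.2 ± 0.588 FPKM in Arf-C, against 3.35 ± 0.446 in Ctrlv2 (log2 2.16 and 2.22, limma adjusted p = 8.89e-11 and 6.19e-11). Lin28b, an inhibitor of let-7 processing, was at 6.30 ± 0.386 and 6.17 ± 0.141 FPKM, against 4.33 ± 0.608 in Ctrlv2 (log2 0.46 and 0.43).

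Of 16 genes tested that maintain imprints or set DNA methylation, 9 fell with day in Arf-B, 8 in Arf-C and 9 in Ctrlv2, and 2, 3 and 4 rose (medians -0.25, -0.15 and -0.37, against -0.02, -0.02 and -0.01 over all genes). Of all genes tested, 33.8%, 33.8% and 34.4% fell with day in the 3 lines. Zfp57, a zinc finger protein that protects imprints, averaged 44.4 ± 4.33 FPKM in Arf-B and 43.5 ± 6.34 FPKM in Arf-C at day 8, against 26.3 ± 1.59 in Ctrlv2 (log2 0.73 and 0.70, limma adjusted p = 8.73e-05 and 0.000137). Dnmt3l, a cofactor of de novo methylation, was lower, at 39.6 ± 2.26 and 36.5 ± 2.10 FPKM, against 80.0 ± 2.21 in Ctrlv2 (log2 -0.997 and -1.11). In all, 4 of the 16 were higher and 3 lower in Arf-B at day 8, and 4 were higher and 2 lower in Arf-C. DNA methylation itself was not measured.

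Of 13 repressors linked to Kcnq1ot1 silencing, all tested, 3 were higher and 0 lower in Arf-B at day 8 and 3 were higher and 1 lower in Arf-C (medians 0.14 and 0.09, against 0.01 over all genes in each). These counts stand beside 16.3% and 16.8% of all genes higher and 16.9% and 16.8% lower. Ring1, a Polycomb ubiquitin ligase, averaged 7.90 ± 0.719 and 7.95 ± 0.223 FPKM in Arf-B and Arf-C, against 5.00 ± 0.645 in Ctrlv2 (log2 0.57 and 0.58). The members of the list that were not called in Arf-B numbered 10, and the lower one in Arf-C was Rnf2 (log2 -0.20, limma adjusted p = 0.0413). Among 12 Cip and Kip inhibitors, cyclins and kinases, which Cdkn1c acts with, 5 were higher and 2 lower at day 8 in each Arf line (medians 0.12 and 0.13). The 2 lower ones were Cdk2 (log2 -0.72 and -0.73) and Cdkn1a (-0.52 and -0.61).

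Most imprinted genes outside the domain rose with day. Of 18 tested, 14 rose in Arf-B, 14 in Arf-C and 16 in Ctrlv2, with 1 fall in each (medians 0.76, 0.80 and 1.15). Over all genes tested, 32.9%, 32.8% and 33.9% rose in these lines, with medians of -0.02, -0.02 and -0.01. Dlk1 averaged 0.386, 0.206 and 0.315 FPKM at day 0 in Arf-B, Arf-C and Ctrlv2. It passed the 0.5 FPKM filter through day 8 libraries alone. The filter favoured a rise for such a gene, so the counts and medians with day carry that limit. Peg3, a paternally expressed zinc finger gene, reached 63.1 ± 5.52 FPKM in Arf-B, 60.1 ± 8.93 in Arf-C and 57.6 ± 6.11 in Ctrlv2 at day 8, against 3.60, 3.15 and 1.57 FPKM at day 0. At day 8, Arf-B had 6 higher and 6 lower, and Arf-C 5 higher and 6 lower (medians 0.13 and 0.03). The 3 with the largest differences in each Arf line, Peg10, Mest and Sgce, were all lower there. Peg10, a retrotransposon-derived gene expressed from the paternal copy, averaged 4.30 ± 0.348 FPKM in Arf-B and 14.5 ± 1.45 FPKM in Arf-C, against 407 ± 45.7 FPKM in Ctrlv2 (log2 -6.26 and -4.72, limma adjusted p = 7.58e-16 and 5.71e-14). Mest, another paternally expressed gene, averaged 1.34 ± 0.173 and 3.29 ± 0.346 FPKM, against 53.8 ± 2.40 in Ctrlv2 (log2 -4.55 and -3.68). Sgce, the imprinted neighbour of Peg10, averaged 0.0272 ± 0.0174 and 0.119 ± 0.0308 FPKM, against 4.82 ± 0.0834 in Ctrlv2 (log2 -2.50 and -2.38). Sgce passed the 0.5 FPKM filter through Ctrlv2 libraries alone, and its calls, counted among the 6 lower genes of each Arf line, carry that limit. Peg10 and Mest were also lower in Arf-B than in Arf-C at day 8 (log2 -1.54 and -0.87, limma adjusted p = 1.08e-06 and 0.000498), while no difference between the Arf lines was called for the 9 genes of the domain. Sfmbt2, a Polycomb-group gene, averaged 7.89 ± 0.211 and 8.35 ± 0.0725 FPKM, against 24.8 ± 2.49 in Ctrlv2 (log2 -1.54 and -1.46). Dlk1, a Notch ligand homologue and 1 of the higher genes, averaged 23.8 ± 3.04 and 20.2 ± 5.54 FPKM, against 13.6 ± 2.44 in Ctrlv2 (log2 0.77 and 0.52).

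The genes whose log2(FPKM + 1) was most like that of a member over the 18 libraries were taken from 11182 tested genes whose mean reached 1 FPKM. For H19 they were Rcbtb2, Flrt3, Wfikkn1, Col6a1 and Mfap2 (Pearson r of 0.991 to 0.994). Being chosen for likeness to H19, each of these 5 shared its higher day 8 mean in Ctrlv2, which is therefore no separate finding. Flrt3, for example, was at 8.42 and 9.17 FPKM in Arf-B and Arf-C at day 8, against 31.2 FPKM in Ctrlv2. For Igf2 they were Hoxb5, Cyp26a1, Mmp15, Cyp26b1 and Hoxa4 (r of 0.998 to 0.999). Hoxb5 was at 14.6 and 13.8 FPKM in Arf-B and Arf-C at day 8, against 16.0 FPKM in Ctrlv2. For Cdkn1c they were Selenop, Bex3, Rab2a, Col2a1 and Crispld2 (r of 0.958 to 0.965). These correlations describe 6 groups of 3 libraries that all share the day difference, and no test was made of them.

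Markers of other cell types moved with the same contrasts. The 10 extraembryonic endoderm markers summed to 107 to 110 FPKM in Arf-B and 110 to 119 in Arf-C at day 8, against 356 to 468 in Ctrlv2. All 7 tested were lower in both Arf lines, and none of the 10 was without reads at day 8. At day 0 they summed to 45.0 to 55.1 and 46.1 to 51.6, against 127 to 146 FPKM in Ctrlv2, with Ttr and Afp without reads in every group. The 12 mesoderm and mesenchyme markers summed to 19.04 to 21.0 and 17.9 to 20.3 FPKM at day 8, against 38.3 to 49.3 in Ctrlv2, where Mesp1 was without reads. Of the 10 tested, 4 were called lower in Arf-B and 5 in Arf-C. The others were not called lower, so the lower sum does not describe every marker of this list. The same list at day 0 summed to 6.19 to 10.95 and 8.49 to 10.5 FPKM, against 6.82 to 7.41 in Ctrlv2. The day 8 levels fell on the same side as H19, Cdkn1c and Phlda2, and their part in those results was not tested.

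Naive pluripotency markers marked the day 0 cells, and markers of the labelled posterior foregut stayed low at day 8. The 12 naive pluripotency markers summed at day 8 to 137 to 209 FPKM in Arf-B and 118 to 227 in Arf-C, against 47.9 to 58.3 in Ctrlv2, where Dppa3 was without reads, and 9 of 11 tested were higher in each Arf line. At day 0 they summed to 1592 to 1985 FPKM over all lines, and all 11 tested fell with day in each line. Over all genes, 33.8% fell with day in Arf-B, 33.8% in Arf-C and 34.4% in Ctrlv2. The 10 definitive endoderm markers summed to 24.9 to 27.7 and 27.4 to 30.2 FPKM, against 38.8 to 45.7 in Ctrlv2 at day 8, and to 3.19 to 4.08 and 4.04 to 5.16 FPKM, against 3.92 to 4.46 in Ctrlv2, at day 0. The 10 posterior foregut and pancreas markers were low, at 6.86 to 8.09 and 7.15 to 7.73 FPKM, against 7.39 to 8.37 in Ctrlv2, and 4 of 5 tested rose with day in each line. Over all genes, 32.9% rose with day in Arf-B, 32.8% in Arf-C and 33.9% in Ctrlv2. At day 0 the means of 9 (Arf-B), 10 (Arf-C) and 9 (Ctrlv2) of these 10 foregut and pancreas markers lay below the FPKM filter. For tested markers that low at day 0 the filter favoured a rise, so the counts of 4 carry that limit. The 10 trophoblast markers were at 15.2 to 17.2 and 14.8 to 16.7 FPKM at day 8, against 14.1 to 16.6 in Ctrlv2, with Tpbpa and Prl3d1 without reads in all 3 lines. At day 0, where Slc22a18, Cd81 and (in Arf-B) Phlda2 were called lower, the trophoblast markers summed to 9.72 to 14.6 FPKM in Arf-B and 12.9 to 14.3 in Arf-C, against 2.85 to 3.54 in Ctrlv2. Of the 6 tested there, 1 was higher in each Arf line, Tfap2c (log2 2.11 and 2.24, limma adjusted p = 5.66e-07 and 2.6e-07), and 1, Eomes, was lower in Arf-B (log2 -0.33, adjusted p = 0.0132). Against Ctrlv2 at day 0, 39.0% (Arf-B) and 42.8% (Arf-C) of all genes were called. Tpbpa was without reads in every group. The part of these cell types in the results for Phlda2, Slc22a18, Cd81 and the other genes was not tested.

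**Figure D5:**
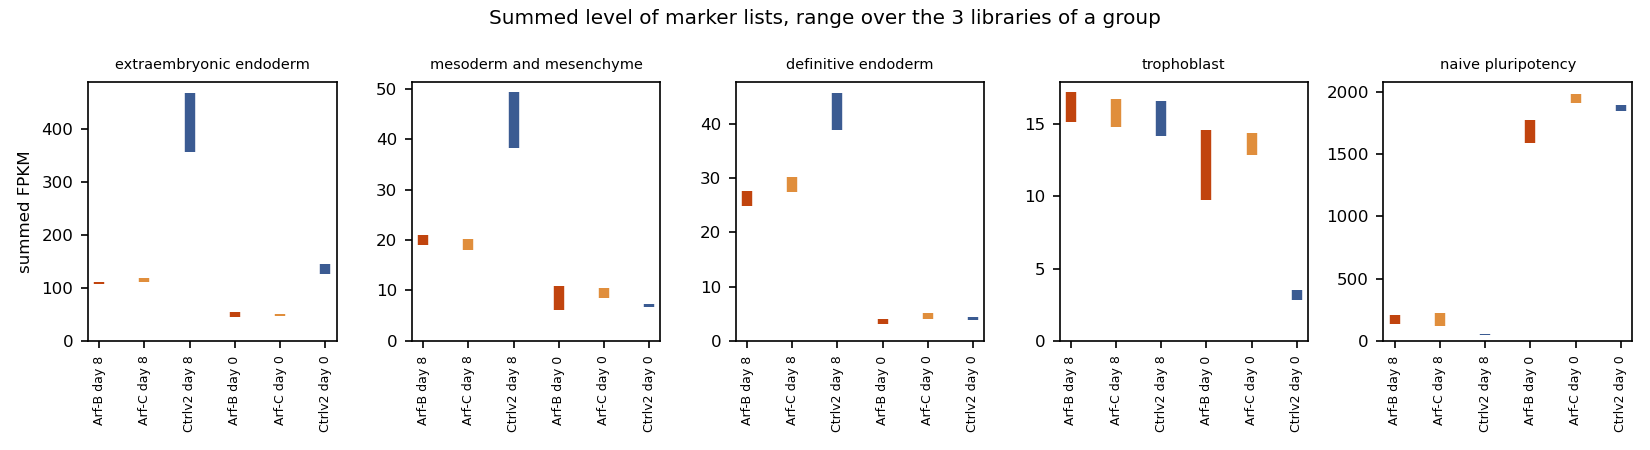
Summed FPKM of 5 marker lists; each bar spans the lowest to the highest of the 3 libraries of a group. Extraembryonic endoderm markers reach 107 to 119 FPKM in the Arf lines and 356 to 468 FPKM in Ctrlv2 at day 8, and naive pluripotency markers are at 118 to 227 FPKM in the Arf lines and 47.9 to 58.3 FPKM in Ctrlv2.

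Libraries held, in reads on genes, from 17103466 to 22222425 in Arf-B, 14598683 to 15678839 in Arf-C and 10432590 to 14709983 in Ctrlv2 at day 8, and from 22945409 to 33311220 in the day 0 libraries. The shallowest library was thus a day 8 library of Ctrlv2, all day 0 libraries were deeper than all of day 8, and the low read numbers of Igf2 and H19 at day 0 were seen in the deeper libraries.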

How the data were processed

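RNA-seq FPKM of 18 libraries in 6 groups of 3 were analysed as the authors deposited them, in 1 table with coordinates, lengths and names of 54532 genes. Tools named in the submitters' processing notes are DESeq2, featureCounts and HISAT2, with mm10 as the mouse build, with neither versions nor settings. Read counts were recovered from the deposited FPKM and gene lengths: all 413772 values above 0 came out whole within 0.001 reads (largest deviation 4.8e-05), which gave 10432590 to 33311220 reads on genes per library. All 18 value columns carry a sample's label, and 0 other value columns were present. Replicates of a group correlated at r of 0.982 to 0.992 with a chi-square per degree of freedom of 4.21 to 34.5, so no library was a copy of another.

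Log2(FPKM + 1) of 17200 genes that reached 0.5 FPKM in 3 or more libraries was fitted with limma 3.58.1 (R 4.3.3, trend and robust settings with statmod 1.5.0), 1 coefficient per group, in 11 comparisons with Benjamini-Hochberg adjustment over all genes tested. The script was tested on simulated data. Kcnq1ot1 and Kcnq1, below the filter, were tested with limma's voom on recovered reads of 18615 genes with at least 10 reads in at least 3 libraries, a fit chosen after the data were seen, as was leaving out single libraries in it. Alternatives were adding 0.1 FPKM, testing without a filter or on genes with a mean of 1 FPKM, median-ratio scaling, scaling to the same sum, fitting only the groups compared, the replicate number as a block, voom, and leaving out each library. Because the unit was FPKM, no count test is a main result. Exact intervals (95%) and the floor of 3 reads cover counting error only. Motifs and ratios were computed with Python 3.11.15, pandas 2.3.3, numpy 2.4.6 and scipy 1.17.1, and plots with matplotlib 3.10.9.

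All 9 genes are named in every comparison. Of each pathway list, the called genes with the largest changes were eligible (4 with day in Ctrlv2, 4 for the Arf lines at day 8), of which a part is reported. Members and lists were chosen with earlier results of these data known, and nothing is supported by that choice.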

Additional observations from a re-analysis of the deposited data

Results flagged for a closer look

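For 4 of the 7 genes tested, the response from stem cells to day 8 differed between an Arf line and Ctrlv2 by limma's interaction term, in both Arf lines. The interactions in Arf-B and in Arf-C were -1.77 and -1.65 for H19, -0.673 and -0.852 for Cdkn1c, -0.956 and -0.891 for Phlda2, and 0.816 and 0.934 for Slc22a18, on the log2(FPKM + 1) scale. Both lines share the Ctrlv2 libraries, so they are not independent of each other. The H19 interactions were not called with voom (log2 -1.47, adjusted p = 0.117, and -0.60, adjusted p = 0.603), where they rest on 10 to 31 day 0 reads per group. Groups of 3 libraries are too small for a check of single outlying libraries.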

How the results depend on the processing

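Of 1239 checks of a single gene in a comparison, 1173 kept their direction and side of the threshold, 24 lost a call, 13 gained a call and 29 turned direction. Of 177 counts of called genes, 175 stayed within 1.5 times. The count for Arf-B against Ctrlv2 at day 8 (4) fell to 2 with libraries scaled to the same sum, and leaving out single libraries gave 2 to 4. The cause was not tested. Scaling to the same sum moved the median of all genes to 0.129 and 0.11 log2 with day in Arf-B and Arf-C, and the percentage of calls that were higher to 62.2% and 60.1%, against 49.4% and 49.2%; the interaction of Arf-B moved to 64.2%, against 52.1%.

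None of the results that turned direction was called. With scaling to the same sum, the Arf-B difference of Ascl2 from Ctrlv2 at day 8 became 0.01444, and that of Slc22a18 between Arf-B and Arf-C at day 8 became 0.004039. With voom, Cdkn1c between Arf-B and Arf-C at day 0 became -0.01214 (-0.01177 with the read filter), and the Igf2 interactions became 0.1187 and 0.8649 (0.1204 and 0.8466), resting on 1 to 6 day 0 reads per group. Leaving out single libraries gave these ranges. Against Ctrlv2 at day 8, Ascl2 ranged between -0.1316 and 0.07749 in Arf-B and between -0.06471 and 0.1402 in Arf-C. Against Ctrlv2 at day 0, Igf2 in Arf-B ranged between -0.014 and 0.004115, H19 in Arf-B between -0.1076 and 0.003773, and Ascl2 in Arf-C between -0.001741 and 0.3465. The Arf-C interaction of Ascl2 ranged between -0.3407 and 0.007537. Between Arf-B and Arf-C at day 8, Ascl2 ranged between -0.1374 and 0.004144, H19 between -0.1175 and 0.04596, Igf2 between -0.03958 and 0.1427 and Slc22a18 between -0.105 and 0.09914. At day 0, Ascl2 ranged between -0.1585 and 0.1897 and Cdkn1c between -0.1353 and 0.1388.

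Deviations of same-numbered libraries from their group means were correlated: over 45 such pairs r was between -0.25 and 0.20 and was above 0.1 in 3. Differently numbered libraries were not compared in this way, so whether the numbers pair samples was not tested. With the replicate number as a block the counts of called genes were 7, 6 and 5 with day in Arf-B, Arf-C and Ctrlv2, 4 and 3 for Arf-B and Arf-C against Ctrlv2 at day 8, 3 and 2 at day 0, 0 at both days between the Arf lines and 4 in each interaction, as without the block. Low read numbers limit the results for H19, Igf2 and Kcnq1 at day 0 and for Kcnq1 in the Ctrlv2 libraries of day 8.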
